A study of Bos taurus and Bos indicus with 3 samples.

Results

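Translation initiation and elongation factors are the proteins that bring ribosomes, initiator tRNA and mRNA together and then move the ribosome along the message. In the gene expression table of bovine leukocytes they were taken as the models whose only gene name begins with EIF or EEF, apart from the EIF2AK kinases, or is the bovine UniProt entry name of such a factor. The rule gave 38 of the 25968 gene models, each name stood on 1 model, and 36 of the 38 were above 0 in at least 1 library. EIF4E1B and EEF1A2 were listed at 0 in all 3 libraries. The rule used names only and no measured value.

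The study compared white blood cells of Cholistani cows, a Bos indicus breed sampled on a farm in Pakistan, with those of Jersey and Holstein cows, which are Bos taurus breeds sampled at dairy herds in Wisconsin. Blood was pooled before the leukocytes were separated, from 45 Cholistani, 7 Jersey and 40 Holstein cows, and polyadenylated RNA was sequenced as 1 library per breed, so an individual's level cannot be seen. No treatment and no age was given in the sources used here. Only the Cholistani RNA was shipped in RNAStable, a dry storage matrix. Breed, farm, country and storage therefore cannot be told apart in any comparison with the Cholistani library, and breed and herd cannot be told apart between Jersey and Holstein. The values are FPKM, fragments per kilobase of transcript scaled by sequencing depth, and upper-quartile normalized by the authors, so that levels of different genes can be set beside each other per length. Folds are log2 ratios of FPKM + 1. With 1 library per breed no difference has a replicate check, no test was possible, and "higher" and "lower" describe these 3 libraries. The fragments behind each value are unknown, so no interval was computed.

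Initiation on most mRNAs starts with eIF4E, which binds the 5′ cap, and with the small ribosomal subunit carrying eIF1, eIF3 and eIF2 with initiator tRNA. The subunit scans to the start codon, where eIF2 hydrolyses its GTP and must later be recharged by its exchange factor eIF2B. In elongation, eEF1A delivers aminoacyl-tRNAs, the eEF1B subunits recharge eEF1A with GTP, and eEF2 moves the ribosome by a codon. Leukocytes adjust these steps when they are activated or stressed, mainly through phosphorylation of eIF2 and through the mTOR pathway, neither of which mRNA levels show.

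The factors were abundant mRNAs. The median level of the 36 measured members was 894 FPKM in the Cholistani, 609 in the Jersey and 642 in the Holstein library. Their percentiles were taken among the 15284 models above 0 in at least 1 library. The median percentile was 91.9 in Cholistani, 91.4 in Jersey and 92.1 in Holstein. Together the factors summed to 67509 FPKM in the Cholistani library, 53276 in the Jersey library and 52592 in the Holstein library. As a share of all FPKM of a library the order was the opposite, with 0.709% in Cholistani, 0.847% in Jersey and 0.884% in Holstein. The 5 most abundant factors held 45.5% of the members' sum in Cholistani, 53.0% in Jersey and 53.5% in Holstein. EEF2 was the most abundant factor in the Cholistani library, whereas EEF1A1 led in both taurine libraries. The plot of levels by role shows each factor in the 3 libraries.

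**Figure D1:**
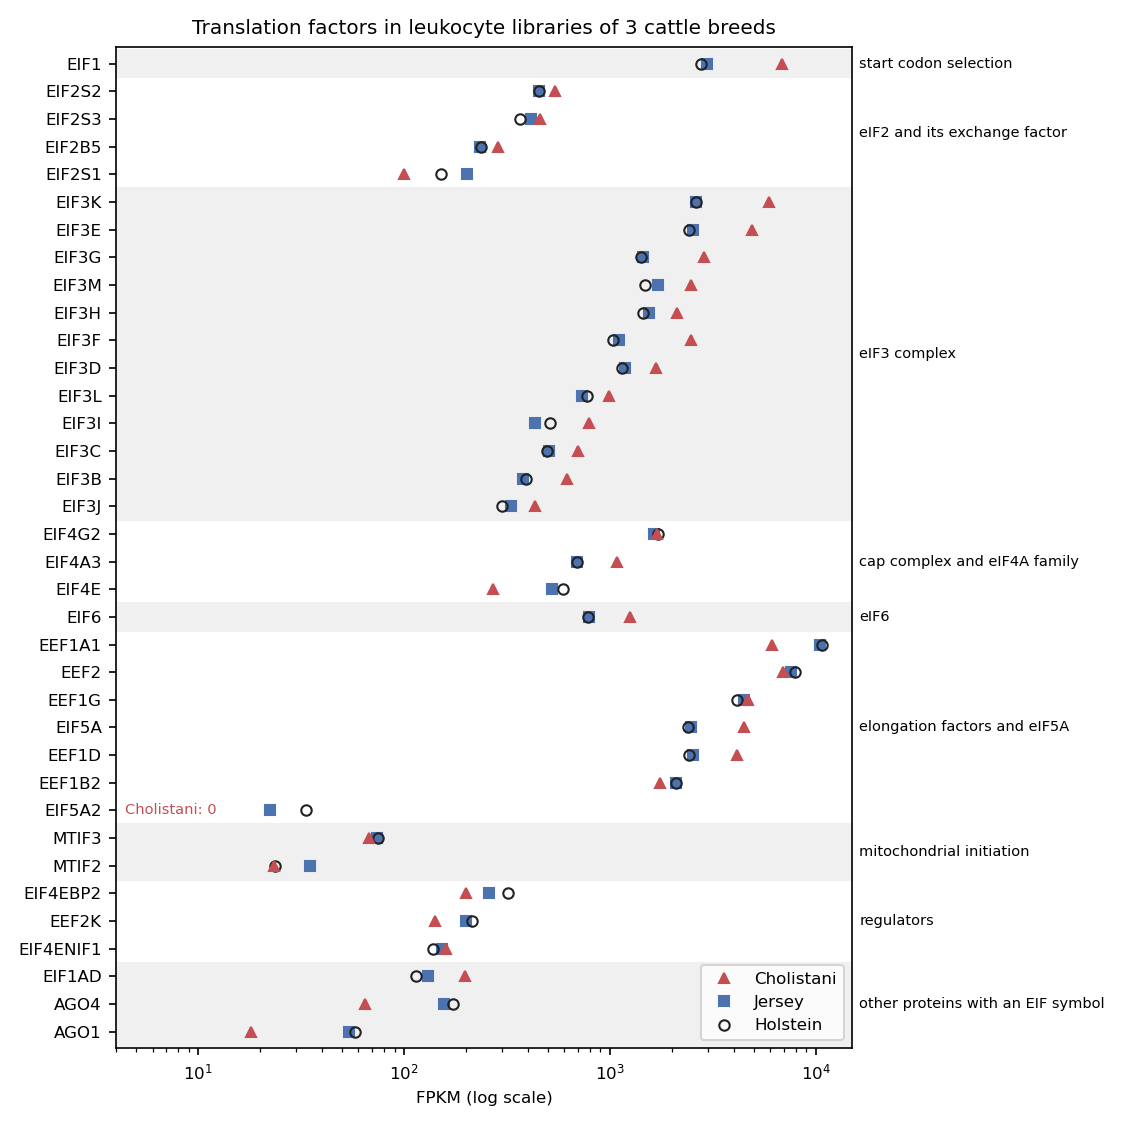
FPKM (log scale) of the 36 measured translation factors in the Cholistani (triangles), Jersey (squares) and Holstein (circles) libraries, 1 point per pooled library, grouped by role. All 12 listed eIF3 subunits have the Cholistani point on the right, whereas EEF1A1, EIF4E, EIF2S1, AGO1 and AGO4 have it on the left, and EIF5A2 is listed at 0 in Cholistani.

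Against Holstein, 5 of 36 factors were 2-fold or more higher in the Cholistani library (EIF1, EIF3F, EIF3K, EIF3G and EIF3E) and 4 were 2-fold or more lower (EIF4E, AGO1, AGO4 and EIF5A2). Of all 15284 models above 0, 19.7% were 2-fold or more higher and 13.7% 2-fold or more lower in this comparison. Against Jersey, 3 factors were 2-fold or more higher in Cholistani (EIF1, EIF3F and EIF3K), where 17.2% of all models were, and 4 2-fold or more lower (EIF2S1, AGO1, AGO4 and EIF5A2), where 14.2% were. The members' counts were thus no larger than those shares of 36 would give. The median log2 fold of the factors was 0.34 over Holstein and 0.34 over Jersey, beside 0.15 and 0.12 for all models. EIF5A2 was counted as lower from its listed 0, and its fold against Cholistani is not printed. Both comparisons share the Cholistani library, so they are not independent.

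Between the taurine libraries, 0 of 36 factors were 2-fold or more higher in Jersey and 0 2-fold or more lower, beside 7.99% and 4.7% of all models. The median log2 fold of Jersey over Holstein was 0.01, and the SD over the 36 genes was 0.19, against 1.36 over all models, many of which have low values. The largest Jersey differences were in the scarce EIF5A2 and MTIF2 (-0.56 and 0.54).

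Since the factors are abundant, their counts were also set beside models of like level. Of the 36 factors, 32 had a mean of at least 100 FPKM, as did 6630 models in all. Against Holstein, 5 of the 32 were 2-fold or more higher in Cholistani, beside 15.7% of the abundant models, and 2 were 2-fold or more lower, beside 4.81%. Against Jersey, 3 of the 32 were higher, beside 13.2%, and 2 lower, beside 4.46%. For Jersey over Holstein the counts were 0 and 0 of the 32, beside 2.05% and 0.724%. The median log2 folds of these 32 factors were 0.52 over Holstein and 0.45 over Jersey, and those of the abundant models 0.32 and 0.30. The shares of factors 2-fold apart from Holstein were thus near those of models of like level. The plot of folds shows the single factors by role.

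**Figure D2:**
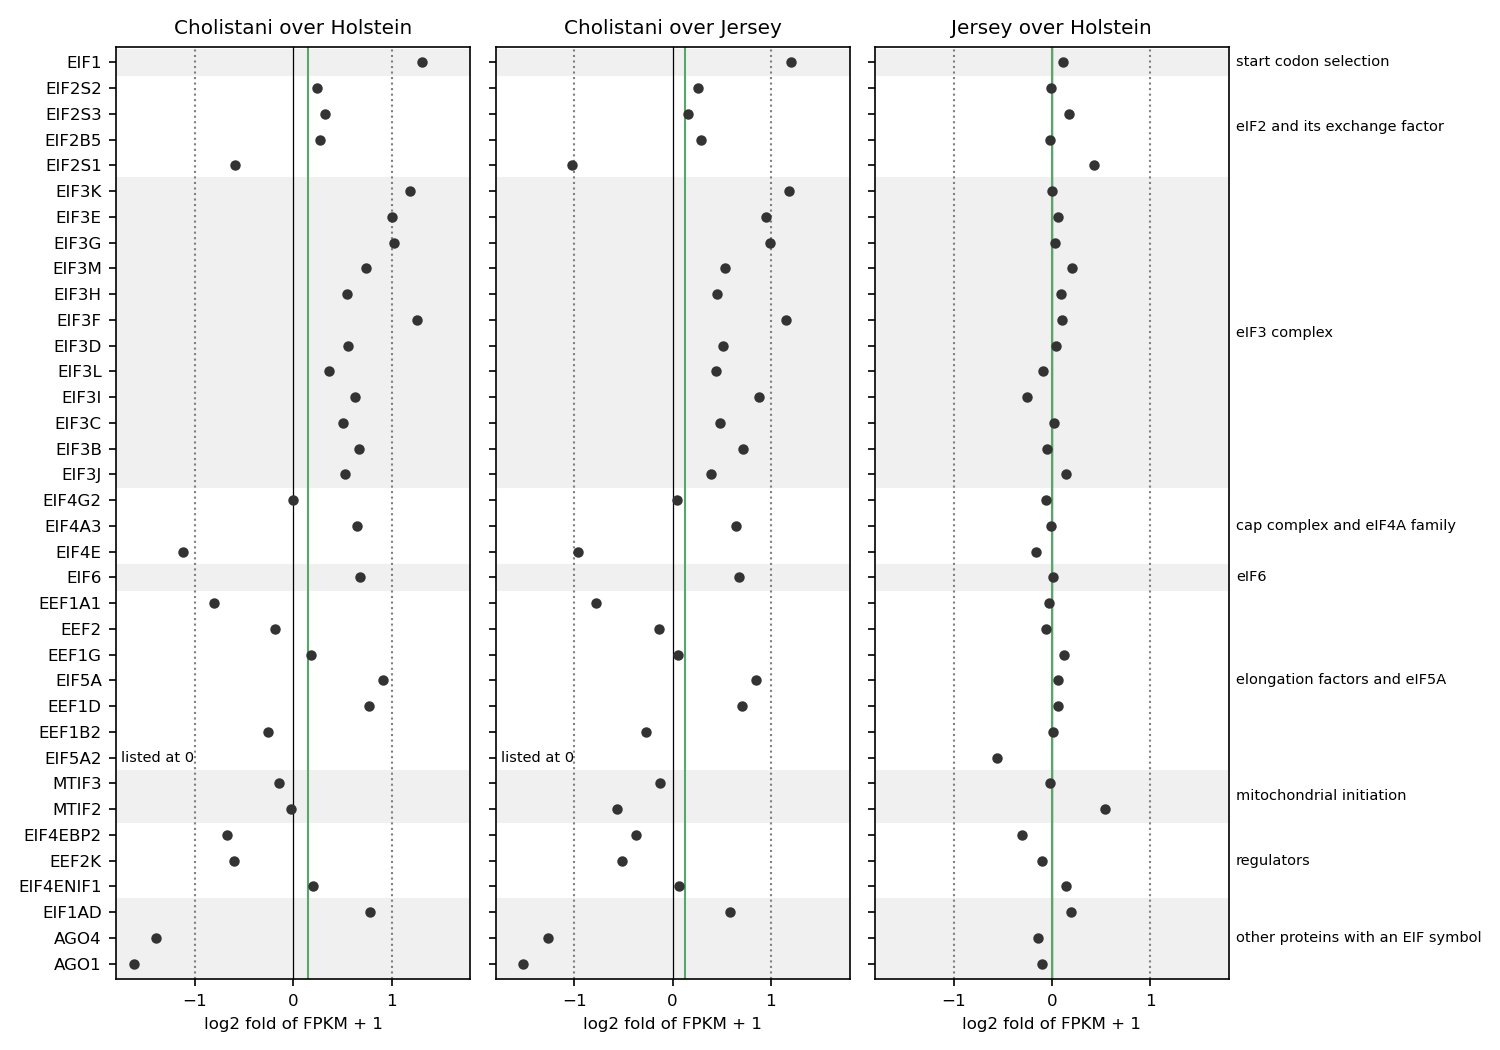
Log2 fold of FPKM + 1 of each translation factor for Cholistani over Holstein, Cholistani over Jersey and Jersey over Holstein, 1 point per gene. Dotted lines mark a 2-fold difference and the green line the median of all 15284 models (0.15, 0.12 and 0); no point of the third panel passes a dotted line, and EIF5A2 has no fold where Cholistani is listed at 0.

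The direction of a small fold depends on how the libraries are scaled. The FPKM of all models summed to 9525770 in Cholistani, 6288100 in Jersey and 5949770 in Holstein. Setting the libraries to equal sums moved the median log2 fold of all models to -0.43 over Holstein and -0.41 over Jersey, and centring on the median of models with at least 10 FPKM in all libraries moved it to -0.05 and -0.05. Group results are therefore also given relative to the median of all models. On all 3 scales and against both taurine libraries, 8 factors were higher in Cholistani (EIF1, EIF3E, EIF3F, EIF3G, EIF3K, EIF5A, EEF1D and EIF6), and 12 were lower (EEF1A1, EEF1B2, EEF2, EEF2K, EIF2S1, EIF4E, EIF4EBP2, EIF5A2, MTIF2, MTIF3, AGO1 and AGO4). For the other 16 the sign differed between scales or comparisons. The same count was not made over all models, so 8 and 12 cannot be read as a trait of the factors. With all models at -0.43 and -0.41 after rescaling, a negative sign on all 3 scales is also easier to reach. Only the sign was counted here, and some of these log2 folds were close to no difference. After rescaling, the fold over Holstein was 0.003 for EIF6 and 0.09 for EEF1D, and as deposited that of MTIF2 was -0.02.

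**Figure D3:**
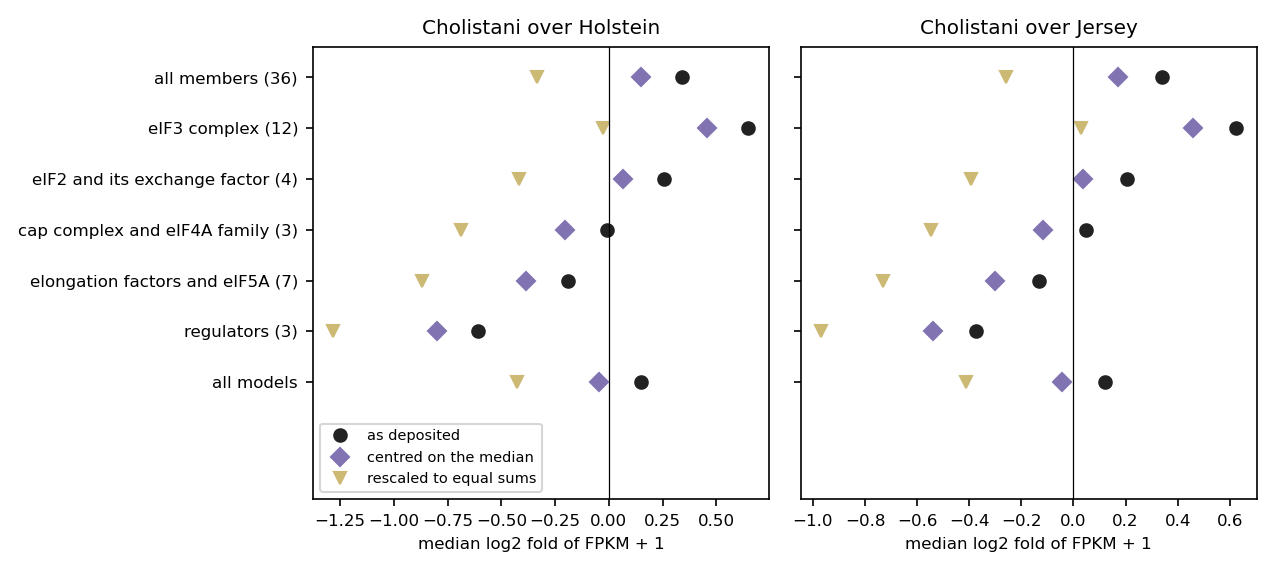
Median log2 fold of FPKM + 1 of all translation factors, of role groups with at least 3 measured genes (number in brackets) and of all models, for Cholistani over Holstein and Cholistani over Jersey, on the deposited scale (circles), centred on the median of models with at least 10 FPKM (diamonds) and rescaled to equal FPKM sums (triangles). The eIF3 median lies to the right of the median of all models on each scale, and the medians of the elongation factors and of the regulators lie to the left of it. The role group of other proteins with an EIF symbol is not drawn.

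EIF1, which keeps the scanning ribosome from starting at the wrong codon, was the initiation factor with the largest fold on the deposited scale. After centring, the negative fold of EIF4E was larger in size, and over Jersey so was that of EIF2S1. After rescaling, the negative folds of EIF4E, EIF2S1, MTIF2 and MTIF3 were larger in size, and over Holstein so was that of EIF4G2. EIF1 had 6836 FPKM in the Cholistani library, against 2976 FPKM in Jersey and 2759 FPKM in Holstein (chr19:43266003-43270228 on btau4.0). The Cholistani level stood apart, while the taurine levels were close, and the log2 fold was 1.31 over Holstein and 1.20 over Jersey. After rescaling to equal sums these folds were 0.63 and 0.60, so the gene stayed higher but no longer by 2-fold. Relative to EIF4G2, a scaffold protein of nearly equal FPKM in the 3 libraries as deposited, EIF1 had a ratio of 4.03 in Cholistani, 1.82 in Jersey and 1.62 in Holstein.

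The eIF3 complex, the largest initiation factor, holds the small subunit ready for mRNA and blocks early joining of the large subunit. The 12 listed subunits run from EIF3B to EIF3M, and EIF3A is not among the members. All 12 listed subunits were higher in the Cholistani library than in both taurine libraries as deposited and after centring, but after rescaling to equal sums 5 of 12 were higher than in Holstein and 6 of 12 higher than in Jersey. The median log2 fold was 0.65 over Holstein and 0.62 over Jersey, and 4 and 2 subunits were 2-fold or more higher. Relative to the median of all models, the eIF3 median was 0.50 above it over both taurine libraries as deposited, and 0.40 and 0.44 above it after rescaling, and all 12 subunits lay above that median on each scale. The distance was smaller beside models with a mean of at least 100 FPKM, a level all 12 subunits had. The deposited median log2 folds of these models were 0.32 over Holstein and 0.30 over Jersey. The lowest eIF3 folds were 0.36 and 0.39. In these bulk libraries a different number of cells of a type and a different amount of RNA per cell cannot be told apart.

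EIF3K, a small subunit, was the most abundant subunit in each library, with 5963 FPKM in Cholistani, 2619 in Jersey and 2619.95 in Holstein (chr18:47892957-47905853). The taurine levels coincided and the Cholistani level was 2.28 times each of them. EIF3F, one of the subunits of the mammalian core, had 2469 FPKM in Cholistani, 1109 in Jersey and 1034 in Holstein, with log2 folds of 1.25 and 1.15 over Holstein and Jersey (chr15:43603876-43612085). EIF3G, an RNA-binding subunit, had 2863 FPKM in Cholistani, 1442 in Jersey and 1410.1 in Holstein (chr7:13134517-13139141). EIF3E, another subunit of that core, had 4887 FPKM in Cholistani, 2537 in Jersey and 2429.9 in Holstein (chr14:54054312-54102288). EIF3G and EIF3E lay at the 2-fold line, with log2 folds of 1.02 and 1.01 over Holstein and 0.99 and 0.95 over Jersey, so whether they count as 2-fold higher depends on the library they are set against.

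The other 8 subunits ranged in log2 fold over Holstein between 0.36 for EIF3L and 0.74 for EIF3M, and over Jersey between 0.39 for EIF3J and 0.88 for EIF3I. EIF3M had 2481 FPKM in Cholistani, 1713 in Jersey and 1487 in Holstein, and EIF3H had 2114, 1545 and 1444 FPKM in the same libraries. EIF3D, which can bind the cap of some mRNAs, had 1683 FPKM in Cholistani, 1181 in Jersey and 1143 in Holstein. EIF3L had 992 FPKM in Cholistani, 729 in Jersey and 774 in Holstein, and EIF3I had 795, 431 and 513 FPKM in the same libraries. In both, Jersey lay below Holstein, unlike in EIF3D. EIF3B and EIF3C, the large scaffold subunits, were among the scarcer ones. EIF3B had 622 FPKM in Cholistani, 378 in Jersey and 392 in Holstein, and EIF3C had 703, 504 and 495 FPKM in the same libraries. EIF3J, a loosely bound subunit, was the lowest of the 12 in each library, with 434 FPKM in Cholistani, 332 in Jersey and 300.5 in Holstein. Although the proteins of the complex act together, their mRNA levels spanned a ratio of highest to lowest of 13.7 in Cholistani, 7.89 in Jersey and 8.72 in Holstein. The sum of the 12 was 26006 FPKM in Cholistani, 14520.4 in Jersey and 14042 in Holstein. The spans of EIF3I, EIF3J and EIF3L overlap other models with FPKM above 0, and the use of strand is not stated, so their values can hold reads of a neighbour.

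For eIF2, the carrier of initiator tRNA, the subunits did not share a direction on the deposited scale, whereas after rescaling to equal sums all 3 lay below both taurine levels in Cholistani. EIF2S1, the alpha subunit that stress kinases phosphorylate, had 99.6 FPKM in Cholistani, 203 in Jersey and 151 in Holstein, which is a log2 fold of -1.02 over Jersey and -0.59 over Holstein (chr10:81442036-81858351). It also differed between the taurine libraries, by 0.43 for Jersey over Holstein. The beta subunit EIF2S2 had 539 FPKM in Cholistani, 451 in Jersey and 455 in Holstein, and the gamma subunit EIF2S3, which binds GTP, had 458, 412 and 366 FPKM in the same libraries. Both stood above the taurine levels as deposited. The ratio of EIF2S1 to EIF2S2 within a library, which no scaling changes, was 0.185 in Cholistani, 0.450 in Jersey and 0.331 in Holstein. The model of EIF2S1 spans 416 kb and overlaps 7 other named models above 0, so this value may not be that of 1 gene. EIF2B5, the catalytic subunit of the exchange factor, had 285 FPKM in Cholistani, 233 in Jersey and 236 in Holstein, again lower in Cholistani after rescaling.

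In the cap-binding step, EIF4E was lower in the Cholistani library, with 270.1 FPKM against 526 FPKM in Jersey and 589 FPKM in Holstein (chr6:27476388-27516205). The log2 fold was -1.12 over Holstein and -0.96 over Jersey, so only the first passes 2-fold, and the sign was the same on all 3 scales. EIF4G2, a relative of the eIF4G scaffold that serves cap-independent initiation, had 1695 FPKM in Cholistani, 1638 in Jersey and 1705 in Holstein, and its span overlaps a small nucleolar RNA. The ratio of EIF4E to EIF4G2 was 0.159 in Cholistani, 0.321 in Jersey and 0.345 in Holstein. EIF4A3, a helicase of the exon junction complex, had 1087 FPKM in Cholistani, 693 in Jersey and 694 in Holstein, and its fold over Holstein changed sign after rescaling (0.65 as deposited, -0.03 rescaled). EIF6, which keeps the large ribosomal subunit from joining early, had 1256 FPKM in Cholistani, 788 in Jersey and 783 in Holstein, with log2 folds of 0.68 over Holstein and 0.67 over Jersey. After rescaling these folds nearly vanished, at 0.003 and 0.08.

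The proteins that restrain eIF4E were listed under names of different forms. EIF4EBP2, a member, binds eIF4E and keeps it from eIF4G, and it had 199 FPKM in Cholistani, 258 in Jersey and 319.7 in Holstein. Its relative EIF4EBP1 stands under an entry name that the rule does not take, and it had 994 FPKM in Cholistani, 364 in Jersey and 376 in Holstein. As deposited its log2 folds were 1.40 over Holstein and 1.45 over Jersey. The ratio of EIF4E to EIF4EBP1 was thus below 1 in Cholistani, at 0.272, and above 1 in both taurine libraries, at 1.44 in Jersey and 1.56 in Holstein. The ratio of EIF4EBP1 to EIF4EBP2 was 4.99 in Cholistani, 1.41 in Jersey and 1.18 in Holstein. EIF4ENIF1, which carries eIF4E into the nucleus, had 159.7 FPKM in Cholistani, 153 in Jersey and 139 in Holstein, and its span overlaps DRG1.

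The elongation factors with eIF5A made up the largest share of the members' FPKM in each library, and they summed to 28108 FPKM in Cholistani, 29775 in Jersey and 29695 in Holstein. Their sum as deposited was thus close in the 3 libraries, while its make-up differed. EEF1A1, which brings aminoacyl-tRNA to the ribosome, had 6129 FPKM in Cholistani, 10536 in Jersey and 10731 in Holstein (chr9:12614262-12617657). The log2 fold was -0.81 over Holstein and -0.78 over Jersey, below 2-fold on the deposited scale, and -1.49 and -1.38 after rescaling to equal sums. Processed copies nearly identical to this gene are known in mammalian genomes, and reads with up to 20 alignments were kept by the authors, so its level is uncertain. EEF1A1 is also the only member for which the study designed a primer pair for real-time RT-PCR, shown here because it marks the transcript stretch that assay read. The assay's values are not used here:
EEF1A1 forward: aggacacagagacttcat
EEF1A1 reverse: caaattcaccaacaccag
Both primers are 18 bases long with a GC content of 44.4%, and no capitals are used because no part of them was singled out.

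Among the subunits of eEF1B, EEF1B2 was lower in Cholistani like EEF1A1, and EEF1D was higher. EEF1D, the delta subunit, had 4153 FPKM in Cholistani, 2539.7 in Jersey and 2432 in Holstein, with log2 folds of 0.77 over Holstein and 0.71 over Jersey. EEF1G, the gamma subunit, had 4673 FPKM in Cholistani, 4502 in Jersey and 4129 in Holstein. EEF1B2, the beta subunit that exchanges GDP for GTP, had 1745 FPKM in Cholistani, 2101 in Jersey and 2086 in Holstein. Thus EEF1D was higher in Cholistani on all 3 scales, EEF1B2 lower, and EEF1G slightly higher as deposited but lower after centring or rescaling. After rescaling the log2 folds of EEF1D were only 0.09 over Holstein and 0.11 over Jersey. The ratio of EEF1A1 to EEF1D was 1.48 in Cholistani, 4.15 in Jersey and 4.41 in Holstein. The span of EEF1D overlaps 5 other models above 0, and that of EEF1B2 overlaps a small nucleolar RNA listed at 0 in Cholistani.

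EEF2, the translocase, had 6911 FPKM in Cholistani, 7584 in Jersey and 7893 in Holstein, a log2 fold of -0.19 over Holstein and -0.13 over Jersey. EEF1A1 stood below EEF2 in the Cholistani library, with a ratio of 0.887, and above it in Jersey and Holstein, with ratios of 1.39 and 1.36. EEF2K, the kinase that switches eEF2 off, had 141 FPKM in Cholistani, 201 in Jersey and 215 in Holstein (log2 folds of -0.61 over Holstein and -0.51 over Jersey). EIF5A, which helps the ribosome through difficult peptide bonds, had 4497 FPKM in Cholistani, 2491 in Jersey and 2391 in Holstein (log2 folds of 0.91 over Holstein and 0.85 over Jersey). Its ratio to EEF1A1 was 0.734 in Cholistani, 0.236 in Jersey and 0.223 in Holstein. The span of EIF5A overlaps 5 other models, and 4 of these were also higher in Cholistani than in both taurine libraries. EIF5A2, a scarce relative of EIF5A, was listed at 0 in Cholistani, 22.2 FPKM in Jersey and 33.3 FPKM in Holstein.

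**Figure D4:**
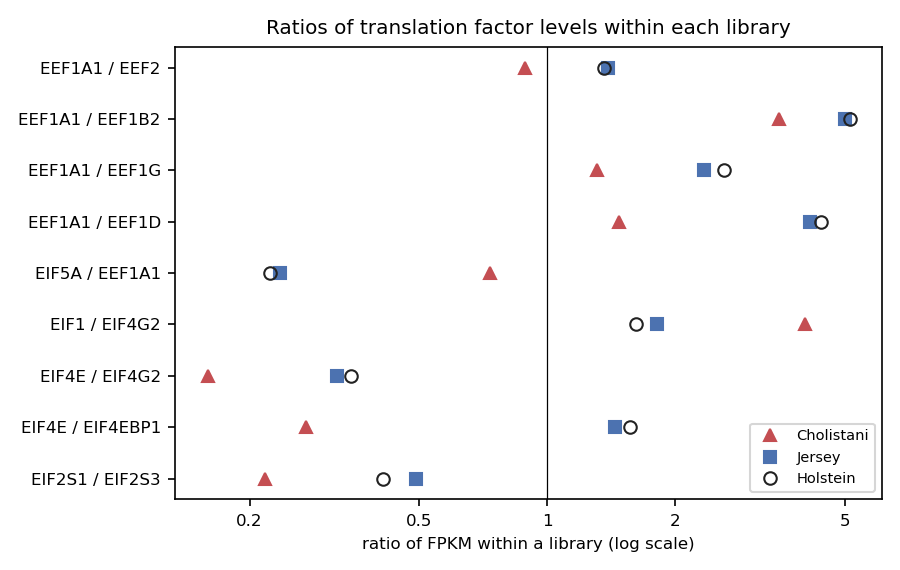
Ratios of the FPKM of translation factors within each library (log scale), with Cholistani as triangles, Jersey as squares and Holstein as circles, 1 point per pooled library. A scaling of the whole library leaves these ratios as they are; EEF1A1 over EEF2 and EIF4E over EIF4EBP1 fall below 1 in Cholistani only.

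Some members carry an EIF name or a like entry name but are no cytosolic translation factors. EIF2C1 and EIF2C4 are older symbols of the Argonaute genes AGO1 and AGO4, whose proteins bind small RNAs and silence their targets. AGO1 had 18.0 FPKM in Cholistani, 53.7 in Jersey and 57.5 in Holstein (chr3:117100924-117131779), and AGO4 had 64.6 FPKM in Cholistani, 157 in Jersey and 172 in Holstein (chr3:117160058-117198143). These neighbours on chromosome 3 had the most negative folds of the members above 0 in all libraries, with log2 folds over Holstein of -1.62 for AGO1 and -1.40 for AGO4, and over Jersey of -1.52 and -1.26. EIF1AD, a nuclear protein named for its likeness to eIF1A, had 197 FPKM in Cholistani, 131 in Jersey and 115 in Holstein, and after rescaling its fold over Jersey was -0.01. The initiation factors of mitochondria were scarce: MTIF2 had 23.2 FPKM in Cholistani, 34.9 in Jersey and 23.6 in Holstein, and MTIF3 had 67.7, 74.1 and 75.1 FPKM in the same libraries. The span of MTIF2 overlaps the ribosomal protein gene RPS27A, and that of MTIF3 overlaps GTF3A.

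Across the 36 factors, the log2 fold of Cholistani over Holstein was larger for the more abundant genes (Spearman's rho of 0.49 and Pearson's r of 0.57 with the log2 mean FPKM), and it was weakly related to the listed span of the model (rho of -0.19, r of -0.10). Over Jersey these values were 0.52 and 0.60 with the mean, and -0.21 and -0.15 with the span. Over all 15284 models the rho with the mean was 0.12 over Holstein and 0.16 over Jersey. EIF5A2 is among the 36, with folds that rest on its listed 0 in Cholistani and the pseudocount. It also has the lowest mean of the 36, 18.5 FPKM, and its pull on Pearson's r was not examined. The points are genes of the same libraries and not independent, the mean holds the Cholistani value that the fold also holds, and these are descriptions without a test. The order of the factors' levels was nearly the same between libraries, with a Spearman's rho of 0.97 over 35 factors between Cholistani and Holstein, 0.97 between Cholistani and Jersey, and 0.997 over 36 factors between Jersey and Holstein.

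Other genes that act on the factors, or beside them, were taken from 9 lists of 77 genes, of which 49 were found by name and above 0. Their values and folds are given on the deposited scale only. Of these 49, 7 were 2-fold or more higher and 2 were 2-fold or more lower in Cholistani than in Holstein (median log2 fold 0.31), beside 19.7% and 13.7% of all models. Against Jersey, 7 were higher and 0 lower (median 0.40), beside 17.2% and 14.2% of all models. Neither count of higher genes was larger than the share over all models would give. For Jersey over Holstein the counts were 0 and 0, beside 7.99% and 4.7%. The widest folds were in the integrated stress response, the programme that follows phosphorylation of eIF2, where 3 of 7 genes were 2-fold or more higher in Cholistani than in both taurine libraries and 0 were 2-fold or more lower, beside 19.7% of all models higher against Holstein and 17.2% against Jersey. ATF4, the transcription factor whose translation increases when eIF2 is phosphorylated, had 5309 FPKM in Cholistani, 2433 in Jersey and 2215 in Holstein. PPP1R15A, which brings a phosphatase back to eIF2, had 1151 FPKM in Cholistani, 122 in Jersey and 118 in Holstein. ATF3, a transcription factor induced by many stresses, had 319 FPKM in Cholistani, 23.8 in Jersey and 23.7 in Holstein. The other 4 genes, DDIT3, TRIB3, ASNS and PPP1R15B, stayed below 2-fold, with log2 folds over Holstein between -0.43 and 0.67. EIF2AK4, the only eIF2 kinase found, had 113 FPKM in Cholistani, 103 in Jersey and 102 in Holstein.

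In the list of mTORC1 and translation signalling, genes stood apart in both directions. Of 10 found, 3 were 2-fold or more higher and 2 were 2-fold or more lower in Cholistani than in Holstein, and 2 were higher and 0 lower than in Jersey, beside the same shares of all models (19.7% and 13.7% against Holstein, 17.2% and 14.2% against Jersey). With 10 genes these counts are a description only. RPS6KB2, a kinase of ribosomal protein S6, had 2229 FPKM in Cholistani, 641 in Jersey and 425 in Holstein. MLST8, a subunit of the mTOR complexes, had 168 FPKM in Cholistani, 78.8 in Jersey and 76.8 in Holstein. MTOR itself was lower, with 32.0 FPKM in Cholistani, 54.1 in Jersey and 65.5 in Holstein. LARP1, which holds back mRNAs of the translation machinery, had 85.4 FPKM in Cholistani, 164 in Jersey and 176 in Holstein. Of the 11 cytosolic aminoacyl-tRNA synthetase genes found, which charge the tRNAs that eEF1A carries, only WARS was 2-fold or more higher against either taurine library, with 3853 FPKM in Cholistani, 1124 in Jersey and 1366 in Holstein. This gene is known to be induced by interferon gamma. DHPS and DOHH, the enzymes that make the hypusine residue of eIF5A, had log2 folds of 0.55 and 0.76 over Holstein on the deposited scale.

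**Figure D5:**
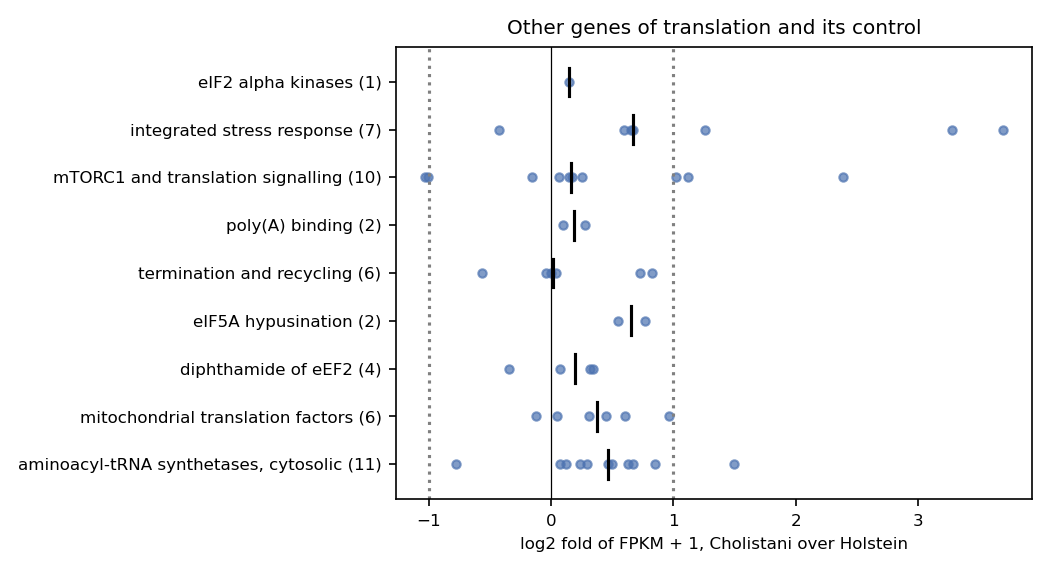
Log2 fold of FPKM + 1 of Cholistani over Holstein for other genes of translation and its control, 1 point per gene, by list (number of genes found in brackets), with the black bar at the median of the list and dotted lines at a 2-fold difference. ATF3 and PPP1R15A of the integrated stress response lie farthest to the right, and LARP1 and MTOR lie at the left dotted line.

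The libraries also differed in markers of leukocyte types. CORO1A, the only general leukocyte marker found of 3, had 16310.0 FPKM in Cholistani, 7842 in Jersey and 7638 in Holstein. The 7 T cell markers found of 10 summed to 11621 FPKM in Cholistani, 5655 in Jersey and 5577 in Holstein, the 3 of 5 natural killer markers to 3417, 773 and 1018 FPKM, and the 4 of 7 B cell markers to 17220.5, 9468.5 and 7540.4 FPKM in the same libraries. For the 7 of 8 neutrophil markers the sums were closer, at 35234 FPKM in Cholistani, 30432 in Jersey and 38606 in Holstein, with MMP9 at 0 in Jersey. The 3 of 6 monocyte markers summed to 859, 548 and 873 FPKM, and the 4 of 6 platelet markers to 856, 1124 and 1067 FPKM, with GP1BA at 0 in Cholistani and Jersey. The 3 of 6 red cell markers summed to 102, 375 and 536 FPKM, with AHSP at 0 in all libraries and HBA at 0 in Holstein. CORO1A and the T cell, B cell and natural killer sums were thus higher in Cholistani as deposited, as the eIF3 subunits and EIF1 were. The B cell sum was mostly CD79A, with 14273 FPKM in Cholistani, 6190 in Jersey and 5281 in Holstein. The B cell marker PAX5 was lower (log2 folds of -1.02 over Holstein and -1.38 over Jersey), and CD22 was lower than in Jersey (-0.42). The median log2 fold of the 4 B cell markers was 0.47 over Holstein and -0.09 over Jersey. The neutrophil markers had median log2 folds of 0.82 over Holstein and 1.08 over Jersey, while their sum lay between those of the taurine libraries. Marker sums and folds are given on the deposited scale only, and their order between libraries can change with the scale. The part of these markers in the results was not tested.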

How the data were processed

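Polyadenylated RNA from pooled leukocytes of 3 breeds was measured in 3 libraries. The authors aligned reads to btau4.0 with TopHat 1.0.14 (Bowtie 0.12.7, Ensembl release 60 junctions), discarded reads aligning to more than 20 locations, and estimated the deposited FPKM values with Cufflinks 0.9.3, with upper-quartile normalization and a correction for sequence bias. No count table was used here, so depth per gene is unknown. Reads shared between similar or overlapping genes can shift a value.

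Starts were taken to count from 0 and 1 was added. Gene names came from the table, and 37 of 38 symbols were also in the RefSeq list (ARS-UCD assembly, used for names only). The 5 models with missing values were left out. Log2 folds used a pseudocount of 1 FPKM, and a 2-fold difference was counted. There is 1 library per breed, so no test was run. The counting was tested on simulated data. Members, lists and rules were chosen with earlier results of these data known. Values per library are given for members at least 2-fold apart in any comparison, for the 2 most abundant of each role, for EEF1A1 and for further members. The alternatives tried were a pseudocount of 0.1 or 10, a floor of 10 FPKM in 1 library, centring, rescaling to equal sums, a fold of 1.5, summing or dropping repeated names, and translation factors only. Python 3.11.15, pandas 2.3.3 and numpy 2.4.6 were used. Promoter and protein sequences were not used here.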

Additional observations from a re-analysis of the deposited data

How the results depend on the processing

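Of the values recomputed, 69 stayed within 1.5 times the count or 0.1 of the log2 median, 16 moved further and 2 turned their sign. Centring left 2 factors 2-fold or more higher and 5 lower in Cholistani than in Holstein, beside 2469 and 2517 of all 15284 models. It gave median log2 folds of 0.15 over Holstein and 0.17 over Jersey. After rescaling to equal FPKM sums, 0 factors were 2-fold or more higher and 8 2-fold or more lower against Holstein, and likewise 0 and 8 against Jersey, with medians of -0.34 and -0.26. Of all 15284 models on this scale, 1773 were higher and 4199 lower against Holstein, and 1588 and 4004 against Jersey. The medians of all models were -0.43 and -0.41, so this shift was not particular to the factors. With a threshold of 1.5-fold, 13 factors stood above and 8 below the Holstein level, and 12 above and 6 below the Jersey level. The share of all models at this threshold was not computed, so these counts are a description only. Among the 30 initiation and elongation factors of the cytosol and mitochondria, without regulators and other proteins, 2 were 2-fold or more lower against Holstein and 2 against Jersey, with medians of 0.52 and 0.45. Among the 25 factors whose span overlaps no other model above 0, an alternative chosen after seeing the data, the medians were 0.51 and 0.45. The pseudocount moved none of the counts or medians beyond these limits. The minimum of 10 FPKM kept all 36 factors, and each name stood on 1 model. The minimum and the handling of names therefore could not change a value, although their values are counted among the 69. No alternative gave a factor 2-fold apart between Jersey and Holstein. The cause of these shifts was not tested, apart from the scales, which move all genes of a library together. No paired analysis was possible because each breed had 1 library, and no replicate could be left out.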

Other observations

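Further genes of the same machinery stand under names that the rule does not take. Of the exchange factor eIF2B, EIF2B1 had 58.3 FPKM in Cholistani, 53.2 in Jersey and 45.6 in Holstein, and EIF2B2 had 223, 230 and 206 FPKM in the same libraries. EIF2B3 had 103 FPKM in Cholistani, 68.5 in Jersey and 70.3 in Holstein, and EIF2B4 had 263, 199 and 171 FPKM. As deposited, none of these 4 subunits was 2-fold apart from a taurine library, and their log2 folds over Holstein ranged between 0.11 and 0.62. Folds of this size can change sign with the scale, as that of EIF2B5 over Holstein did (0.27 as deposited, -0.41 after rescaling to equal sums). EIF4A2, a helicase that unwinds the 5′ end of mRNAs, shares a merged model with small nucleolar RNAs, and this model had 2634 FPKM in Cholistani, 2079 in Jersey and 1465 in Holstein.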
